A study of Mus musculus with 8 samples.

Results

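The cells described here were chosen by 3 transcripts of the early limb bud. They are the cells of 2 whole-limb libraries of mouse forelimb at embryonic day 11.5 (E11.5) that held at least 1 unique molecular identifier (UMI, the tag that marks 1 captured transcript) of at least 2 of *Pax1*, *Irx3* and *Irx5*, and 0 UMIs of *Hand2* and *Hoxa13*. Of 11146 cells with at least 3000 UMIs and at most 10% mitochondrial UMIs in these libraries, 807 met this rule, which were 363 of 5464 cells in whole 1 and 444 of 5682 in whole 2. The whole series held 53085 cells after the same filter. They are called members below, and the rule is called the gate. Because members were selected on the UMIs of these 5 genes, the values of those genes are a description and were not tested.

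The series held 8 libraries of single cells from forelimbs of C57BL/6J embryos, made with 10x Genomics 3′ droplet chemistry. Of these, 6 held cells sorted for tdTomato between E11.5 and E16.5, and both libraries used here held tdTomato+ and tdTomato- cells together. According to the methods, the mice carried a *Hic1* CreERT2 allele and a Rosa26 tdTomato reporter, and the labels give 7.5 mg of tamoxifen by gavage to the dams on day 10 of gestation, for both whole-limb libraries alike. The reporter can mark only cells that express *Hic1* and their descendants, so it does not mark limb mesenchyme as a whole. *tdTomato* was at 5.12 UMIs per 1000000 UMIs (CPM) in the members of whole 1 and 3.87 in those of whole 2, against 3.79 and 4.24 in the other cells, and 17 and 16 UMIs stood behind the member values. Cells with blood and endothelial surface markers were removed in the sort, and forelimbs were pooled. The labels number the libraries as replicates 1 and 2 and do not say that they came from separate litters, so what differs between them may be technical. With 2 libraries, the p-values rest mainly on counting error and on the spread shared across genes.

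The limb bud is patterned along 3 axes. *Irx3* and *Irx5* encode Iroquois homeodomain transcription factors that act in the proximal and anterior early limb bud, and *Pax1* encodes a paired-box factor of the sclerotome and of the anterior proximal limb bud, where it takes part in forming the shoulder girdle. *Hand2* acts posteriorly, upstream of the signal Sonic hedgehog (*Shh*), and *Hoxa13* marks the autopod, the distal part from which the hand forms. Along the proximal to distal axis, *Meis* genes are known from the proximal part and the 5′ genes of the HoxA and HoxD clusters from more distal parts.

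In mm10 with GENCODE M21 gene models, *Pax1* spans chr2:147361925-147393295 (plus strand). *Irx3* spans chr8:91798525-91802067 (minus strand), and *Irx5*, at chr8:92357625-92376286 (plus strand), lies 555557 bases from it. The sequences around the transcription starts of *Pax1* and *Irx3*, and that of *Agtr2*, a gene that was higher in members, are given because they were searched for the letters to which Iroquois proteins bind (ACANNTGT) and for those of MEIS proteins (TGACAG), on both strands. They run from 250 bases before to 50 bases after the start, come from RefSeq (GRCm38.p6), and lie at chr2:147364744-147365043 on the plus strand, chr8:91801605-91801904 on the minus strand and chrX:21484374-21484673 on the plus strand. Capitals mark a match to ACANNTGT, and the motifs do not overlap.

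Pax1: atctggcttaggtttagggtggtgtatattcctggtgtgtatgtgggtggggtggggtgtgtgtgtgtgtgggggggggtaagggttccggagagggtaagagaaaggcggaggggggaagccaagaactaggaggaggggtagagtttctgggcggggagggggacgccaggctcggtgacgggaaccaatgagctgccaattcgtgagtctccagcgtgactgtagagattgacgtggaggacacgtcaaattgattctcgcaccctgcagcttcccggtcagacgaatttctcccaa
Irx3: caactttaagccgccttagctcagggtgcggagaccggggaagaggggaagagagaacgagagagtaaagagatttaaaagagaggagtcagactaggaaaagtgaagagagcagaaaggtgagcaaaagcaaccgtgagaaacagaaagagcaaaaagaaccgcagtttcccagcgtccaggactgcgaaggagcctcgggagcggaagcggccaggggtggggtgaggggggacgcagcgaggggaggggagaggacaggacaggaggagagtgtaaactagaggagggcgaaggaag
Agtr2: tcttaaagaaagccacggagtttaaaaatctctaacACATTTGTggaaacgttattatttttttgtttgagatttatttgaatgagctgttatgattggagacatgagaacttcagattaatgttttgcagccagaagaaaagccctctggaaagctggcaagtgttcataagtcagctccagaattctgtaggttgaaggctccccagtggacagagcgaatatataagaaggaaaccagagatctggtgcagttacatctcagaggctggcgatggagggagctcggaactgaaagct

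ACANNTGT was found in 7.38% and TGACAG in 19.2% of the 32851 promoters of that table. *Agtr2* held 1 match to ACANNTGT, and *Pax1* and *Irx3* held neither motif in this window. Of the 10 genes named below as highest in members, 6 had a promoter in the table, of which 1 held ACANNTGT and 0 held TGACAG. Of the 10 named as lowest, 7 had a promoter there, and of their 9 promoters 1 held ACANNTGT and 0 held TGACAG. A match describes letters only.

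Gate genes were about equally abundant in both libraries. *Pax1* was at 299 CPM in the members of whole 1 and 328 in those of whole 2, against 11.5 and 11.2 in the other cells. *Irx3* was at 325 and 280 CPM against 13.1 and 14.8, and *Irx5* at 193 and 178 CPM against 5.56 and 5.13. Among members with a *Pax1* UMI the median cell held 4 of them, against 2 for each Iroquois gene where it was present. The sum over the 3 genes ranged from 2 to 42 UMIs per member in either library, with a median of 5.

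Members made up 6.64% (exact 95% binomial interval 6 to 7.34) of whole 1 and 7.81% (7.13 to 8.54) of whole 2, a mean of 7.23% ± 0.83 (SD, n = 2). These and all later intervals cover counting error only. The members fell into 4 combinations. The largest held *Irx3* and *Irx5* without *Pax1* (189 cells or 52.1% of the members of whole 1, and 200 cells or 45% of those of whole 2). All 3 genes were found in 83 (22.9%) and 123 (27.7%) members, *Pax1* with *Irx3* in 63 and 81, and *Pax1* with *Irx5* in 28 and 40. At the edge of the gate, 53 and 69 members held 2 of the genes at 1 UMI each. Just outside it, 393 and 476 cells held 1 of the 3 genes with 0 UMIs of *Hand2* and *Hoxa13*, and 74 and 76 cells held 2 or more but also a UMI of *Hand2* or *Hoxa13*. *Meis2*, a proximal homeobox gene that the gate did not use, was at 380 and 499 CPM in the members with 2 UMIs, at 257 and 270 CPM in cells with 1 of the genes, and at 471 and 470 CPM in the cells set aside for *Hand2* or *Hoxa13*. The edge of the gate was therefore not an edge of *Meis2*, whose level outside all members was 79.2 and 90 CPM. *Emx2* and *Hoxc4*, described below, were also found in cells with 1 of the genes. There *Emx2* was at 19.5 and 21.4 CPM, against 22.2 and 25.5 in the members with 2 UMIs and 4.94 and 6.74 outside all members. *Hoxc4* was at 23.9 and 33.2 CPM there, against 64.1 and 31 in the members with 2 UMIs and 4.5 and 6.4 outside all members.

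The whole-limb libraries held 51674380 and 51505671 UMIs over all barcodes. Members were as deep as the other cells, with medians of 8826 and 8655.5 UMIs against 8858 and 8590.5. The libraries shared 45 barcode sequences, which 2 members of whole 1 and 4 of whole 2 carried, and 0 barcodes were members in both. Marker genes of other cell types were rare in members. At least 2 of 7 myogenic markers were found in 7 (1.93%) and 8 (1.8%) members, against 5.58% and 4.89% of all cells, and epithelial or endothelial markers in 3 members in all. Summed over the 7 haemoglobin genes, the members had 5.72 and 9.42 CPM against 348 and 295 in the other cells. Endothelial markers summed to 5.42 and 4.35 CPM against 16.3 and 21.1, immune markers (3 of 6 at 0 in members) to 2.11 and 2.17 against 6.23 and 7.44, glial and neural crest markers (3 of 5 at 0) to 4.52 and 2.17 against 4.67 and 3.58, and epithelial markers to 35.5 and 23.7 against 26 and 26.1. The part of these cells in the results was not tested, apart from the values with mesenchymal cells only. The 8 limb mesenchyme markers, of which 5 were higher in members and 0 lower in the test described below, summed to 2056 and 1960 CPM in members against 1798 and 1778 in the other cells. Set against mesenchymal cells alone, which are defined below, 2 of the 8 were higher and 3 (*Prrx1*, *Prrx2* and *Tbx5*) lower where *Hand2* was not seen (2078 and 2019 CPM), of which *Tbx5* (log2 fold change -0.17) lost its call under 5 alternatives and was at -0.09 with cells matched for depth, and 4 were higher and 2 lower where it was (1903 and 1870 CPM). The call of *Prrx1* against all other cells was lost with DESeq2, without the block, with cells thinned and with mesenchymal cells only. The label anterior was checked separately, with the genes described below.

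Whether the 3 gate genes go together was examined in cells chosen without the gene in question, with every cell thinned to 3000 UMIs so that depth could not differ. Among cells with both *Irx3* and *Irx5*, 25.6% (18.2 to 34.2) in whole 1 and 34.5% (25.8 to 44) in whole 2 had a *Pax1* UMI, against 17.8% and 20.3% of cells with 1 of them and 2.47% and 3.08% of cells with neither. *Irx3* was found in 58.2% (44.1 to 71.3) and 54.2% (42 to 66) of cells with both *Pax1* and *Irx5*, against 4.6% and 5.05% of cells with neither. *Irx5* was found in 39.5% (28.8 to 51) and 38.2% (28.8 to 48.4) of cells with both *Pax1* and *Irx3*, against 2.06% and 2.24% of cells with neither. Cells with myogenic markers were taken as a background, and whether they lack these genes was not tested. At the same depth *Pax1* was found in 0.656% and 0.36% of them, *Irx3* in 5.9% and 4.32% and *Irx5* in 1.31% and 2.88%. Each gene was found above this background in cells with the other 2, in both libraries, whereas *Irx3* and *Irx5* in cells with neither were within the intervals of this background. *Hand2* was seen in 5.58% and 5.74% of thinned cells with 2 or 3 of the genes, against 21.9% and 21.7% of cells with none of them, and *Hoxa13* in 0 of 197 cells (a count of 0 allows up to 1.52%) and 0.957% of 209 cells, against 4.2% and 3.64%. The gate used these 5 genes, and members were chosen with earlier results of these data known. All shares in this paragraph are therefore a description and were not tested.

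**Figure D1:**
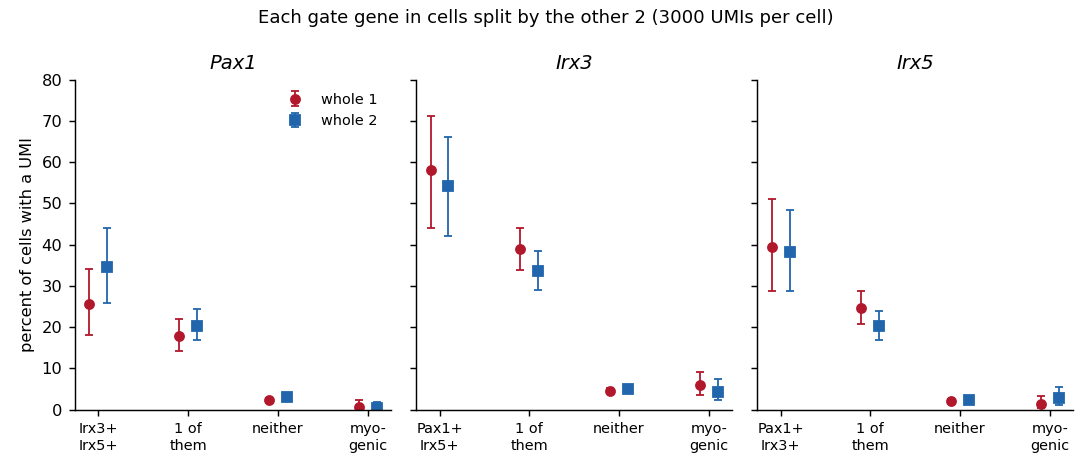
Percent of cells with a UMI (vertical axis) of *Pax1*, *Irx3* or *Irx5* (panels) after thinning to 3000 UMIs per cell, split by the other 2 genes (horizontal axis), with cells holding myogenic markers at the right of each panel. Circles are whole 1, squares are whole 2, and bars are exact 95% binomial intervals. In each panel both libraries have their highest share in cells with both other genes, such as 58.2% and 54.2% for *Irx3*.

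Members were next compared with all other cells of the same library, which asks what else marks these cells in the limb bud. UMIs were summed over the cells of each class in each library, and classes were compared with the library as a block. Members had higher transcript levels of 17 of the 22 tested Hox genes of paralogs 1 to 8, none of them in HoxD, and of *Rspo1*, *Agtr2* and *Calb2*, and lower levels of the 5′ HoxD genes and of distal regulators such as *Lmo2* and *Sall3*. In edgeR's quasi-likelihood test 1255 genes were higher, which is 9.24% of the 13585 genes tested, and 1195 (8.8%) were lower at an adjusted p under 0.05. Of these, 320 were higher and 373 lower by at least 1 on the log2 scale. Leaving out the block gave 1233 calls in all, and DESeq2 made 826.

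**Figure D2:**
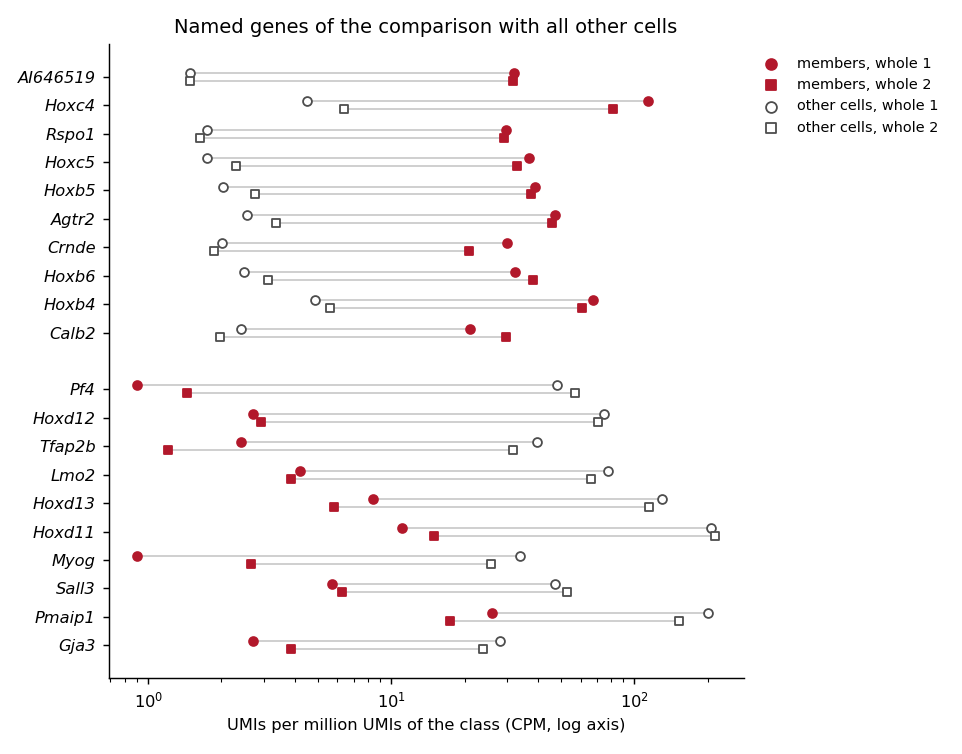
Levels (CPM, log axis) of the 10 genes with the largest fold change in each direction between members (filled) and all other cells (open), in whole 1 (circles) and whole 2 (squares). For each gene both filled symbols lie on the same side of both open ones, as for *Hoxc4* at 114 and 81.9 CPM in members against 4.5 and 6.4 in other cells.

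*Hoxc4*, a 3′ gene of the HoxC cluster, was at 114 and 81.9 CPM in members of whole 1 and whole 2 and at 4.5 and 6.4 CPM in other cells, a log2 fold change of 4.16 ± 0.11 (SE, adjusted p = 1.2e-47 by edgeR). *Rspo1* encodes a secreted protein that strengthens Wnt signals and was at 29.5 and 29.2 CPM against 1.75 and 1.63, a log2 fold change of 4.12 ± 0.18. *Agtr2*, the angiotensin II type 2 receptor, was at 47 and 45.7 CPM against 2.54 and 3.37 (log2 fold change 3.97 ± 0.14). *Calb2*, which encodes the calcium-binding protein calretinin, was at 21.1 and 29.5 CPM against 2.4 and 1.97. The members had the higher value in both libraries, as the naming rule requires. *Hoxc5*, *Hoxb5*, *Hoxb6* and *Hoxb4* completed the 10 together with 2 neighbours of gate genes. *AI646519*, an antisense transcript that overlaps the annotated *Pax1* gene by 869 bases, had the largest log2 fold change (4.42 ± 0.17) at 31.9 and 31.6 CPM against 1.48 in both. Whether the counting used strand is not given in the sources used here, so reads of *AI646519* and *Pax1* in that stretch cannot be told apart and its value is uncertain. *Crnde*, a long noncoding RNA that starts 1504 bases from *Irx5* on the other strand, was at 29.8 and 20.8 CPM against 2.02 and 1.87.

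Shares of cells were compared at equal depth for *Hoxc4* and for *Emx2* and *Meis2*, which are described further below. With 3000 UMIs per cell, a *Hoxc4* UMI was found in 27.3% (22.8 to 32.2) and 20.9% (17.3 to 25) of members against 1.29% and 1.79% of other cells (unthinned 52.3% and 43.2% against 3.43% and 4.24%), and in 0 of 305 and 1 of 278 cells with myogenic markers. *Emx2*, a homeobox gene of the anterior proximal limb bud and shoulder girdle, was found in 12.1% (8.95 to 15.9) and 14.2% (11.1 to 17.8) of members against 1.27% and 1.53% of other cells (unthinned 22.6% and 28.8% against 2.96% and 3.82%). *Meis2* was found in 60.9% and 62.8% of members against 16.2% and 17.4% of other cells (unthinned 86.2% and 91.2% against 26.1% and 27.5%) and in 7.54% and 7.19% of cells with myogenic markers, whose median depths were 13043 and 12087.5 UMIs.

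Among the genes that were lower, *Hoxd13*, which patterns the autopod, was at 8.43 and 5.8 CPM in members against 130 and 115 in other cells (log2 fold change -4.12 ± 0.12). *Hoxd12* was at 2.71 and 2.9 CPM against 74.8 and 70.8, and *Hoxd11* at 11.1 and 15 CPM against 206 and 214. *Lmo2*, a LIM-only cofactor of the distal limb bud, was at 4.22 and 3.87 CPM against 78.1 and 66.4 (log2 fold change -4.15 ± 0.15), and *Tfap2b*, an AP-2 transcription factor, at 2.41 and 1.21 CPM against 39.7 and 31.6. *Sall3*, a zinc finger factor, *Pmaip1*, a pro-apoptotic BH3-only protein, and *Gja3*, a gap junction protein, had log2 fold changes of -3.05, -3.04 and -2.93. The other 2 genes of the 10 were *Pf4*, a chemokine of megakaryocytes (0.903 and 1.45 CPM against 47.8 and 56.8), and *Myog*, a myogenic factor (0.903 and 2.66 CPM against 33.8 and 25.8). With only mesenchymal cells kept in both classes *Pf4* and *Myog* turned to log2 fold changes of 0.6 and 0.05.

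Hox genes differed between members and other cells by paralog number and cluster. The clusters are ordered, with paralog 1 at the 3′ end and paralog 13 at the 5′ end, and the 3′ genes are known from more proximal tissue. Of the 23 genes with paralog numbers 1 to 8, 22 were tested, of which 17 were higher in members, 1 (*Hoxd8*) was lower and 4 (*Hoxa6*, *Hoxd1*, *Hoxd3* and *Hoxd4*) did not pass the test. *Hoxd8* (log2 fold change -0.53) lost its call with cells thinned (-0.42), without the block and with DESeq2 (-0.54 in each of the last 2). Of the 9 genes with paralog numbers 9 to 13 in HoxA and HoxD, 8 were tested besides the gate gene *Hoxa13*, and all 8 were lower. The 8 had a median log2 fold change of -2.56, against -0.00338 over all genes tested. *Hoxa9* was the least changed of them (126 and 108 CPM against 153 and 142), *Hoxa10* was at 80.4 and 70.3 CPM against 258 and 268, and *Hoxa11* at 6.02 and 6.28 CPM against 41.7 and 36.8. Within HoxD the differences were 0.2 ± 0.14 on the log2 scale for *Hoxd4*, -0.88 ± 0.09 for *Hoxd9*, -2.47 ± 0.1 for *Hoxd10*, -3.98 ± 0.09 for *Hoxd11*, -4.68 ± 0.16 for *Hoxd12* and -4.12 ± 0.12 for *Hoxd13*. Of the 5′ genes of HoxB and HoxC (paralogs 9 to 13) 4 were tested, of which 0 were higher, 1 (*Hoxc11*, at 0 UMIs in members) was lower and 3 (*Hoxb9*, *Hoxc9* and *Hoxc13*) did not pass. HoxB genes were higher throughout paralogs 2 to 8, for example *Hoxb2* at 104 and 110 CPM against 11.6 and 13.3 and *Hoxb3* at 58.7 and 71 CPM against 5.56 and 6.89. Because the gate asks for 0 UMIs of *Hoxa13*, genes that share cells with *Hoxa13* could be low in members by the rule itself. A comparison with cells that also lack *Hoxa13* and *Hand2* UMIs is given below.

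**Figure D3:**
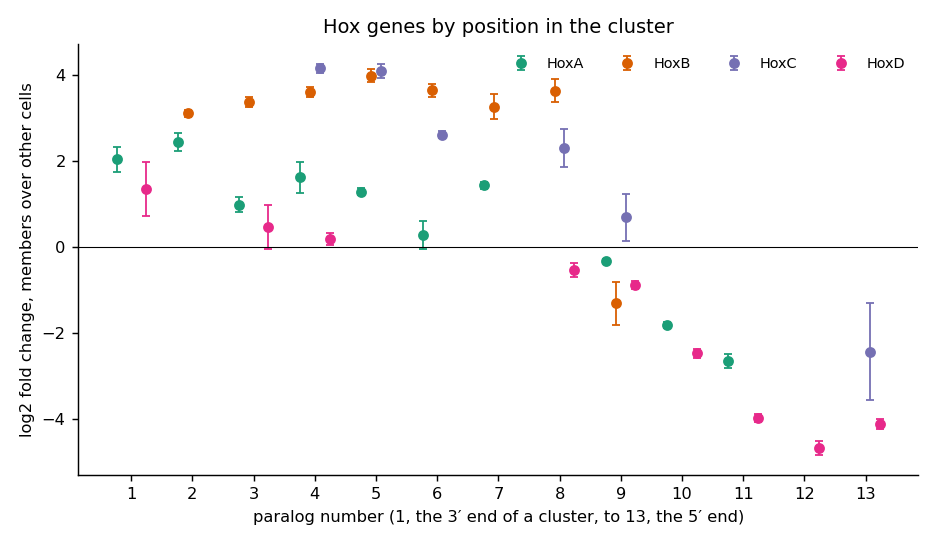
Log2 fold change of members over all other cells (vertical axis, bars are SE) for each tested Hox gene by paralog number (horizontal axis), coloured by cluster. *Hoxc11*, with 0 UMIs in members, and the gate gene *Hoxa13* are left out. HoxB and HoxC genes of paralogs 2 to 8 lie between 2.31 and 4.16, and HoxD genes run from 0.2 at paralog 4 to -4.68 at paralog 12 and -4.12 at paralog 13.

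The proximal regulators were mostly higher. Of 10 genes, 6 rose, 1 fell and 3 did not pass the test, and their median log2 fold change was 0.484. *Pknox2*, the 1 that fell (log2 fold change -1.94), lost its call with all 3 genes required, with cells thinned (-1.15) and with DESeq2. *Meis3*, 1 of the 6 that rose, was at 4.22 and 5.31 CPM in members and lost its call with cells thinned and with DESeq2. *Meis2* was at 375 and 399 CPM in members against 79.2 and 90 in other cells (log2 fold change 2.2 ± 0.04, adjusted p = 5.2e-59 by edgeR), and *Meis1* at 94.2 and 106 CPM against 25.9 and 26.5. *Shox2*, a homeobox gene of the upper arm, was at 341 and 304 CPM against 332 and 331 and did not pass the test. It was lower under 4 alternatives, at log2 fold changes of -1 with all 3 genes required, -0.25 with cells thinned, -0.32 when gated after thinning and -0.11 with mesenchymal cells only.

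The list of anterior regulators was mixed, so the word anterior describes only some of its genes here. Of 12 genes, 5 were higher (*Emx2*, *Alx1*, *Alx4* and *Tbx18* among them), 6 were lower (*Pax9*, *Zic2*, *Zic5*, *Asb4* and *Mab21l2* among them) and *Gli3* did not pass the test. *Alx1* lost its call with all 3 genes required (log2 fold change 0.09) and with cells thinned (0.58). *Pax9* lost its call under both and when gated after thinning, and *Asb4* without the block. *Emx2* was at 50 and 61.6 CPM against 4.94 and 6.74, a log2 fold change of 3.26 ± 0.12. *Alx4*, an aristaless-like homeobox gene of the anterior limb bud, was at 16.6 and 15.2 CPM against 5.6 and 4.6, and *Tbx18*, a T-box factor, at 182 and 174 CPM against 86.9 and 95.9. *Zic2* and *Zic5*, which encode zinc finger factors, were at 4.82 and 8.21 CPM against 36 and 36.8 and at 10.5 and 8.7 CPM against 48.1 and 46.6. *Gli3*, which restrains hedgehog targets in the anterior limb bud, was at 79.8 and 74.4 CPM against 75.3 and 84.6.

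Posterior genes were lower, apart from *Tbx2*, *Tbx3* and *Osr1*. Of 10 posterior and *Shh* signalling genes, 7 fell and 3 rose. The gate asks for 0 UMIs of *Hand2*, which acts upstream of *Shh*, so low levels of these genes could follow from the rule and the count is given as a description. *Osr1*, 1 of the 3 that rose (log2 fold change 0.81), lost its call with cells thinned (0.2), and *Shh* lost its call when gated after thinning (-1.91). Against mesenchyme that also lacks *Hand2* and *Hoxa13* UMIs, described further on, 5 of the 9 tested were lower, 3 were higher and *Hhip* did not pass, and *Shh* could not be tested. Of the 5 lower genes, *Gli1* and *Grem1* lost their calls with all 3 genes required, with cells thinned and with DESeq2. *Shh* had 0 UMIs in the members of both libraries, which allows up to 0.903 and 0.725 CPM (3 UMIs per library), and was at 3.46 and 3.61 CPM in other cells. *Ptch1*, the hedgehog receptor and a target of the pathway, was at 12 and 15.7 CPM against 56 and 56.3 (log2 fold change -1.99 ± 0.12), *Gli1*, another target, at 2.11 and 2.42 CPM against 12.3 and 10.3, and *Bmp2* at 19.3 and 24.9 CPM against 48 and 48.8. *Tbx2* and *Tbx3*, T-box factors found at both the anterior and the posterior margin of the limb bud, were at 32.5 and 38.4 CPM against 15.1 and 16.5 and at 163 and 173 CPM against 89.7 and 95.8. Of the 10 distal regulators 8 fell and 2 rose. The gate asks for 0 UMIs of *Hoxa13*, so low levels of distal genes could also follow from the rule. Against the mesenchyme that also lacks *Hand2* and *Hoxa13* UMIs, 8 were lower, *Msx2* was higher and *Lhx9* did not pass. That call of *Msx2* was lost at the UMI minimum of 5000, with cells matched for depth, without the block and with DESeq2. Beside all other cells, *Lhx2* was at 26.8 and 29 CPM in members and 106 and 111 in the others. *Lhx9*, its LIM homeobox relative, was at 278 and 318 CPM against 201 in both libraries, and *Msx2* at 278 and 279 CPM against 227 and 202. At 3000 UMIs per cell *Msx2* was found in 33.6% and 37.4% of members against 36.4% and 33.4% of other cells, which overlap, and *Lhx9* in 52.1% and 52.9% against 35.1% and 36.2%. The other Iroquois genes were scarce: *Irx1* and *Irx2* did not pass the test, and *Irx4* and *Irx6* had too few UMIs to be tested.

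Genes of signalling pathways moved in both directions within each list. Over all genes tested in this comparison, 9.24% were higher and 8.8% lower. Of 10 retinoic acid genes tested, 6 rose and 3 fell. *Rarb*, a receptor that retinoic acid itself induces, was at 29.2 and 26.6 CPM against 3 and 3.41 (log2 fold change 3.11 ± 0.16), and *Crabp2*, a binding protein, at 969 and 1070 CPM against 555 and 609. *Cyp26b1*, the enzyme that breaks retinoic acid down, was at 24.4 and 29.2 CPM against 67.2 and 78.3. *Aldh1a2*, which makes it, was at 0.602 and 0.725 CPM against 4.81 and 5.98. Of 14 Wnt genes 6 rose and 5 fell, with *Dkk2*, a secreted modulator, at 40 and 34.1 CPM against 11.1 and 9.29, *Wnt5a*, a distal ligand, at 50.3 and 51 CPM against 177 and 185, and *Frzb*, a secreted antagonist, at 17.5 and 12.6 CPM against 71.3 and 70.1. *Lef1*, a Wnt gene that rose, lost its call with cells thinned, and *Axin2*, another, with all 3 genes required. Of 13 BMP genes 3 rose and 6 fell, with the ligand *Bmp4* at 54.2 and 42.8 CPM against 24.7 and 23.8. *Bmp7*, which also rose, lost its call with cells thinned, without the block and with DESeq2. Of 12 FGF genes 3 rose and 3 fell, among them *Dusp6*, a feedback phosphatase, at 84.3 and 85.3 CPM against 188 and 180, and *Fgf10*, the mesenchymal ligand, at 3.91 and 6.04 CPM against 15.8 and 15.2. *Fgf10* lost its call with all 3 genes required, and *Fgfr2*, which rose, and *Etv4*, which fell, with cells thinned. *Spry1*, which rose, lost its call with the highest doublet scores left out, with cells thinned, when gated after thinning, without the block and with DESeq2. Of 11 genes of hedgehog reception 3 rose and 5 fell, and the coreceptor *Gas1* was at 750 and 865 CPM against 467 and 538.

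To compare members with cells that also hold no UMI of *Hand2* or *Hoxa13*, they were set against 4906 other mesenchymal cells of that kind (2404 in whole 1 and 2502 in whole 2). This comparison shares the member cells with the one above. These cells were shallower than members, with medians of 7744.5 and 7635.5 UMIs. The edgeR test called 988 genes higher (7.98% of 12387 tested) and 850 lower (6.86%), and 881 in all without the block. All 8 tested HoxA and HoxD genes of paralogs 9 to 13 were lower here too, with a median log2 fold change of -2.54 against 0.00107 over all genes. *Hoxd13* was at 61.6 and 55.8 CPM in the comparison cells and *Hoxd11* at 158 and 163 CPM. A count of 0 *Hoxa13* UMIs in these shallower cells does not show that the gene was off. The part of the rule in these levels was not tested. The 10 genes that the naming rule picked as higher were *AI646519*, *Hoxb6*, *Hoxb5*, *Rspo1*, *Hoxc4*, *Hoxc5*, *Crnde*, *Agtr2*, *Hoxb4* and *Calb2*, with log2 fold changes from 4.25 to 2.99. Those it picked as lower were *Ccdc109b*, *Hoxd11*, *Hoxd12*, *Lmo2*, *Hoxd13*, *Sall3*, *Pmaip1*, *Hoxa11*, *Dlx5*, a distal-less homeobox gene of the limb margin, and *Zic2*. *Ccdc109b* was at 0.301 and 0.966 CPM in members against 20.4 and 20.5 (log2 fold change -4.9 ± 0.33).

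Within this *Hand2*-negative mesenchyme, *Meis2* (99.8 and 117 CPM in the comparison cells), *Meis1* (33.5 and 33.9), *Emx2* (7.52 and 9.44) and *Rarb* (3.17 and 3.9) were higher in members. Of the 12 anterior regulators 5 were higher and 7, with *Gli3*, lower here, with a median log2 fold change of -0.537 and a summed level of 916 and 897 CPM in members against 1265 and 1343. *Alx4*, 1 of the 5 (log2 fold change 0.86), lost its call with all 3 genes required (0.84), with cells thinned (0.81) and with DESeq2 (0.85). *Ptch1* was lower, at 12 and 15.7 CPM against 37.5 and 37.8 (log2 fold change -1.41 ± 0.13, adjusted p = 3.9e-25 by edgeR). *Gli3* and *Shox2* passed the test here with log2 fold changes of -0.34 and -0.24, and neither call was sturdy. *Gli3* lost it with cells thinned (-0.33), when gated after thinning (-0.1) and with DESeq2 (-0.34), and *Shox2* with cells matched for depth and without the block. *Lhx9* did not pass, at 278 and 318 CPM against 287 and 282. It was called higher under alternatives, at log2 fold changes of 0.79 with all 3 genes required, 0.31 with cells thinned and 0.6 when gated after thinning. Of 11 chondrogenic genes tested here, 7 fell, 0 rose and 4 did not pass, whereas 3 were lower and 1 higher against all other cells and 4 were lower and 2 (*Sox6* and *Gdf5*) higher against the *Hand2*-positive mesenchyme. In the comparison with *Hand2*-negative mesenchyme, levels were lower for *Sox9*, the regulator of cartilage condensation, at 176 and 166 CPM against 251 in both libraries, and for *Col2a1*, the main cartilage collagen, at 72.3 and 53.9 CPM against 79 and 88.5. *Col2a1* did not pass with cells matched for depth, at the UMI minimum of 5000 or with DESeq2. Of 6 myogenic markers tested 4 were higher, which sum over all 7 markers to 19.6 and 25.6 CPM in members against 8.39 and 9.09. Cells with myogenic markers had been left out of the comparison class but not of the members, so the classes were not made alike for these genes.

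Against the 3651 mesenchymal cells with a *Hand2* UMI and 0 of *Hoxa13*, which are posterior by that gene, 1267 genes were higher in members (10.4% of 12135 tested by edgeR) and 1098 lower (9.05%), with 1033 calls in all without the block. The 10 genes named as higher were *Hoxc4*, *Hoxc5*, *Rspo1*, *Agtr2*, *Hoxb5*, *Hoxb6*, *Crnde*, *AI646519*, *Calb2* and *Gria2*, with log2 fold changes from 4.56 to 3.75. *Gria2*, a glutamate receptor subunit, was at 56 and 68.6 CPM against 3.73 and 5.56. *Ptch1* was at 75.5 and 73.3 CPM in these posterior cells and *Gli1* at 15.3 and 14.1 CPM, so members had log2 fold changes of -2.4 ± 0.12 and -2.67 ± 0.27. The posterior cells were chosen by a *Hand2* UMI and members by 0 of them. Differences of *Shh* signalling genes could thus follow from the rule, and they are given as a description. *Gli3* was at 65.3 and 69.4 CPM in the posterior cells and was higher in members by 0.19 ± 0.07 on the log2 scale (adjusted p = 0.048 by edgeR), a call that most alternatives lost and that turned to -0.04 when members had to hold all 3 genes. Of the 12 anterior regulators 7, with *Gli3*, were higher and 4 lower here, at summed levels of 916 and 897 CPM against 844 and 901. These differences too could follow from the choice by *Hand2* UMIs and are given as a description. *Tbx2*, at 23 and 25.3 CPM in the posterior cells, and *Tbx3*, at 132 and 134 CPM, were higher in members by edgeR. With cells thinned both calls were lost, at log2 fold changes of 0.47 and 0.23, and DESeq2 did not call *Tbx2* (0.54). Of the markers of other cell types, myogenic and epithelial genes had higher calls in members here, and the endothelial, immune, glial, neuronal and haemoglobin genes tested had none. Of 5 myogenic markers tested 4 were higher, with a summed level of 19.6 and 25.6 CPM over the list against 5.63 and 5.68, and of 4 epithelial markers 3 (*Epcam*, *Krt8* and *Krt18*), with 35.5 and 23.7 CPM against 18.5 and 14.2, with 1 member in each library that carried epithelial markers by the cell filter. The part of these cells in the comparison was not tested. All 8 HoxA and HoxD genes of paralogs 9 to 13 that were tested were lower, with a median log2 fold change of -2.75 against 0.002 over all genes.

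Members were not alike. The 418 members with a *Pax1* UMI (174 and 244) were compared with the 389 without one (189 and 200), all of which hold *Irx3* and *Irx5* by the rule. With *Pax1*, 3 of 7 distal regulators tested (*Msx1*, *Msx2* and *Lhx9*) were higher and 0 lower, whereas 4 of 7 HoxA and HoxD genes of paralogs 9 to 13 were lower and 0 higher. Without *Pax1*, most of the tested somite and cartilage genes were higher, and so were 6 of 11 connective tissue and tendon genes. The edgeR test called 297 genes higher (3.17% of 9374 tested) and 328 lower (3.5%), with 259 calls in all without the block and 72 by DESeq2.

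**Figure D4:**
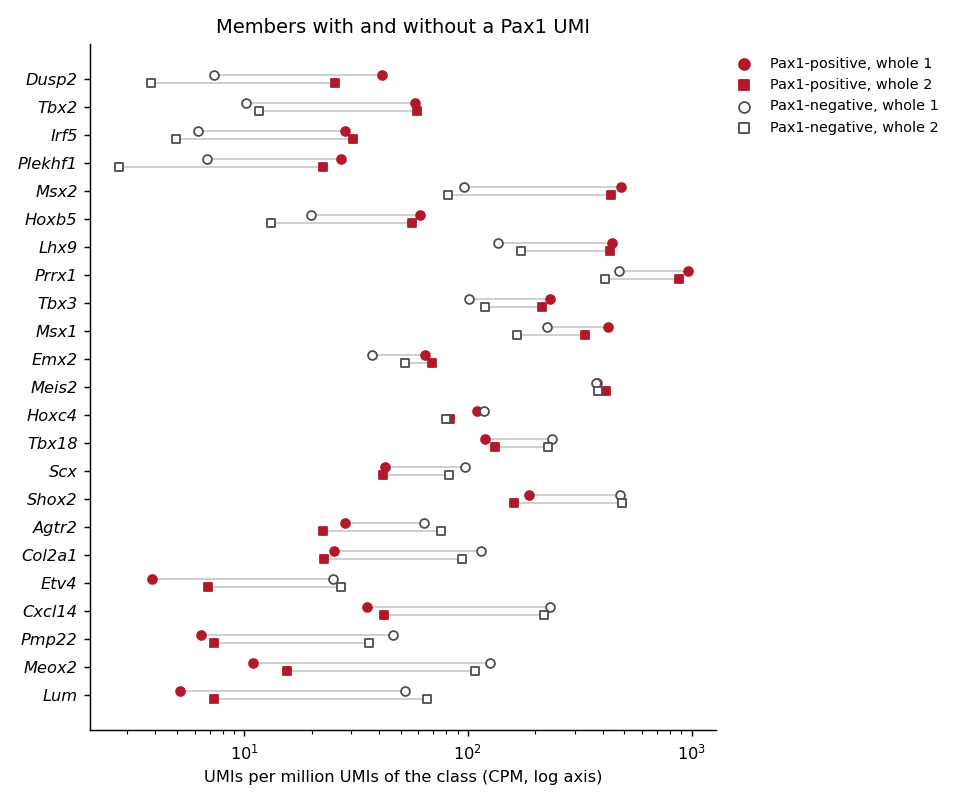
Levels (CPM, log axis) of genes in members with a *Pax1* UMI (filled) and without one (open), in whole 1 (circles) and whole 2 (squares). Genes run from those higher with *Pax1* at the top, such as *Msx2* at 484 and 434 against 95.7 and 81.5 CPM, to those lower at the bottom, such as *Meox2*, and *Meis2* and *Hoxc4* differ little.

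*Msx2*, a homeobox gene of the limb margins and a BMP target, was at 484 and 434 CPM in *Pax1*-positive members and at 95.7 and 81.5 CPM in *Pax1*-negative ones (log2 fold change 2.36 ± 0.09, adjusted p = 8.9e-159 by edgeR). *Lhx9* was at 439 and 432 CPM against 136 and 172, *Tbx2* at 57.9 and 59.4 CPM against 10.2 and 11.6, *Tbx3* at 233 and 215 CPM against 101 and 119, and *Prrx1*, a general limb mesenchyme gene, at 959 and 875 CPM against 472 and 408. In the comparison with all other cells the smaller difference of *Msx2* was thus a mean over members far above and members below the level of the other cells. *Dusp2*, a MAP kinase phosphatase, *Irf5*, an interferon regulatory factor, and *Plekhf1* were the other named genes that were higher besides *AI646519*, with log2 fold changes from 2.36 to 2.54.

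*Meox2*, a homeobox gene of somites and limb muscle, was at 10.9 and 15.5 CPM in *Pax1*-positive members against 125 and 107 in *Pax1*-negative ones (log2 fold change -3.08 ± 0.18). The sum over the 7 myogenic markers was lower too, at 10.9 and 14.2 CPM against 27.2 and 40.2. Only *Pax3* of these markers could be tested, and it was lower at 1.29 and 3.01 CPM against 16.4 and 12.1. With mesenchymal cells only, which left 172 and 241 *Pax1*-positive and 182 and 194 *Pax1*-negative members, *Meox2* had a log2 fold change of -3.12. *Lum*, a proteoglycan of connective tissue, was at 5.15 and 7.32 CPM against 52.1 and 65.5, and *Cxcl14*, a chemokine, at 35.4 and 42.2 CPM against 232 and 218. *Pmp22*, a membrane protein gene, had a log2 fold change of -2.55 ± 0.26. All 4 tested genes of the sclerotome and somite list were lower with *Pax1*, namely *Meox1*, *Meox2*, *Foxc1* and *Tbx18*, with a median log2 fold change of -2.43 against 0.0063 over all genes. *Pax1* is itself a sclerotome gene, and its positive members were thus the ones with less of the other genes on that list. Of 8 chondrogenic genes tested 6 were lower and 1 higher, with *Col2a1* at 25.1 and 22.8 CPM against 114 and 93.6. Of the 11 connective tissue and tendon genes 2 (*Col1a2* and *Col3a1*) were higher with *Pax1*, and the list summed to 1083 and 1086 CPM against 1093 and 1185. Among the 6 that were lower were *Scx*, a tendon regulator, at 42.5 and 41.8 CPM against 96.8 and 82.6, and *Agtr2*, at 28.3 and 22.4 CPM against 63.4 and 75.4. *Shox2* was at 187 and 161 CPM against 477 and 486, and *Etv4*, an FGF target, at 3.86 and 6.89 CPM against 24.9 and 27. DESeq2 did not call *Meox1*, *Foxc1*, *Etv4*, *Plekhf1*, *Hoxa10* (log2 fold change -0.82), *Hoxd9* (-1.04), *Sox9* (-0.51) or *Sox6* (0.61), which kept their direction and which the counts above include.

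For the proximal gene *Meis2* and for *Hoxc4* no difference passed the test. *Meis2* was at 378 and 412 CPM with *Pax1* and 372 and 383 without it, a log2 difference of 0.05 ± 0.06, and *Hoxc4* was at 110 and 83.5 CPM against 118 and 79.8, a difference of -0.04 ± 0.12 (adjusted p = 0.8 and 0.92 by edgeR). *Hoxb5* was higher with *Pax1* (61.1 and 56.4 CPM against 19.8 and 13.2), and so was *Emx2* (64.3 and 68.9 CPM against 37.4 and 52.3, log2 fold change 0.54 ± 0.16, a call lost by DESeq2, without the block, with cells thinned and when gated after thinning). *Hoxa9* and *Hoxa10* were lower (90.7 and 82.2 CPM against 157 and 142, and 56 and 54.7 CPM against 102 and 90.3). Since *Pax1*-positive members include cells in which *Irx3* or *Irx5* was not seen, the comparison was repeated with the 83 and 123 members that held all 3 genes, an alternative added after the data had been seen. It called 448 genes, of which 379 were also called before, and *Alx1*, which had been higher by 0.85 ± 0.28, turned to a log2 difference of -0.32.

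The 4 combinations of gate genes show which levels went with which gene. *Emx2* was at 92.4 and 108 CPM in members with all 3 genes, at 29.5 and 18.1 CPM with *Pax1* and *Irx3*, at 49.6 and 29.9 CPM with *Pax1* and *Irx5*, and at 37.4 and 52.3 CPM with *Irx3* and *Irx5*. The highest of these levels was that of members with all 3 genes in both libraries. *Rspo1* had the same leading class, at 51.9 and 41.8 CPM with all 3 genes and 12.9 and 12.5 CPM with *Pax1* and *Irx3*. *Msx2* ran the other way among *Pax1*-positive members, at 694 and 714 CPM where *Irx3* was not seen, 587 and 570 CPM where *Irx5* was not seen, and 356 and 282 CPM with all 3. *Meox2* was at 125 and 107 CPM with *Irx3* and *Irx5* and at 2.53 to 22.1 CPM in each class with *Pax1*. *Meis2* stayed between 371 and 439 CPM in every class. The class with *Pax1* and *Irx5* was the smallest and shallowest, with 28 and 40 cells and medians of 7086.5 and 7511 UMIs, and its values rest on few UMIs. These levels were not tested.

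**Figure D5:**
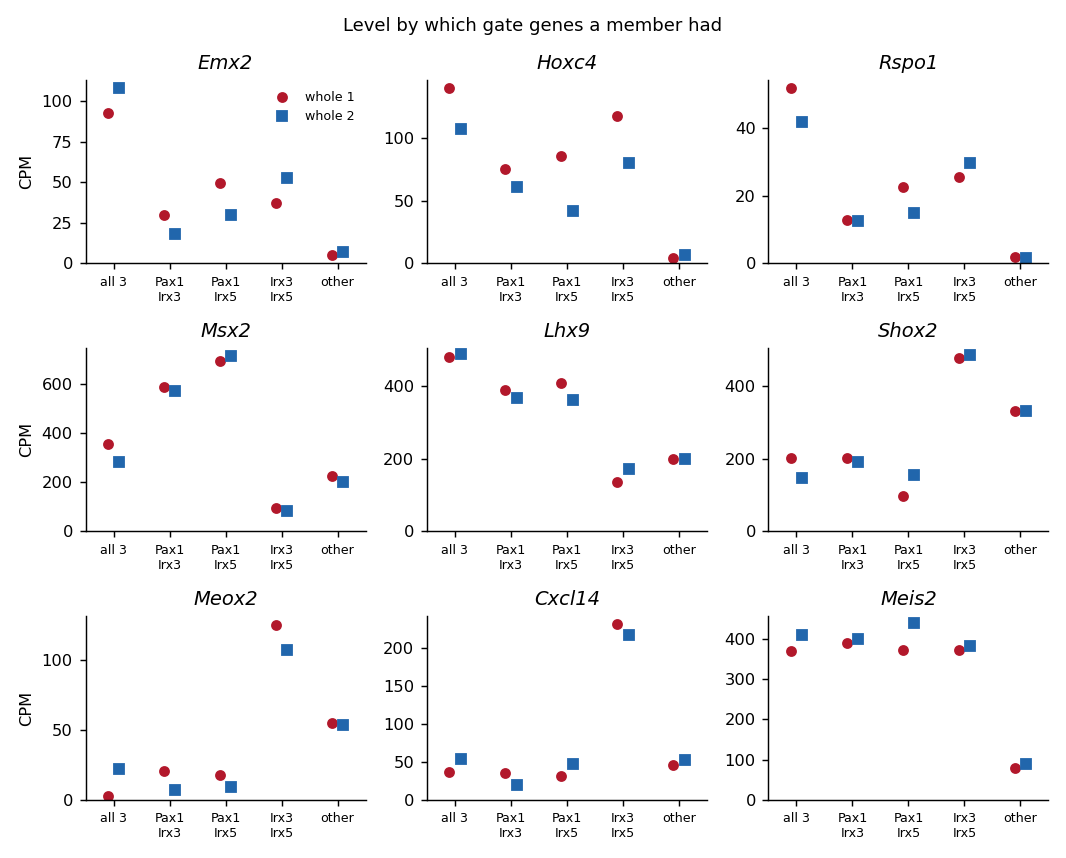
Summed level (CPM, vertical axis, from 0) of 9 genes in members split by which gate genes they held and in all other cells, for whole 1 (circles) and whole 2 (squares). *Emx2* and *Rspo1* are highest with all 3 genes, *Msx2* and *Lhx9* are high wherever *Pax1* is present, *Shox2*, *Meox2* and *Cxcl14* are highest without *Pax1*, and *Meis2* is at 371 to 439 CPM in all 4 member classes.

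Among cell cycle genes the S phase list gave like counts in each comparison with other cells, and the G2/M list did not. Of 17 S phase genes, 9 were lower, 1 was higher and 7 did not pass the test against all other cells, with a median log2 fold change of -0.161, and their summed level was 2891 and 2656 CPM in members against 3184 and 2900. Of 16 G2/M genes, 4 were lower and 12 did not pass against all other cells. Against the *Hand2*- and *Hoxa13*-negative mesenchyme 9 of the 17 S phase genes were lower and 1 higher, at 2891 and 2656 CPM against 3135 and 2888, and 8 of the 16 G2/M genes were higher and 1 lower, at summed levels of 5191 and 5124 CPM against 4967 and 5190, which overlap. *Ccnb1* in that comparison turned from 0.2 to -0.02 on the log2 scale with cells matched for depth. *Plk1* (0.34) lost its call there with cells matched for depth (0.18), with cells thinned, when gated after thinning (0.06) and with DESeq2. Against the *Hand2*-positive mesenchyme 7 of the 16 G2/M genes were lower and 0 higher, at 5191 and 5124 CPM against 6230 and 6081, and 9 of the 17 S phase genes were lower and 1 higher, at 2891 and 2656 CPM against 3142 and 2909. Between *Pax1*-positive and *Pax1*-negative members, 1 of 17 S phase genes was higher and 2 of 16 G2/M genes were lower. Over all genes tested, 3.17% were higher and 3.5% lower between these members. The shares were 9.24% and 8.8% against all other cells and 7.98% and 6.86% against the *Hand2*- and *Hoxa13*-negative mesenchyme. Against the *Hand2*-positive mesenchyme they were 10.4% and 9.05%.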

How the data were processed

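Single-cell suspensions of E11.5 forelimbs were profiled in 2 whole-limb libraries (whole 1 and whole 2) with the v2 chemistry, according to the methods. The values the authors deposited are raw UMI counts of genes in barcodes, made with Cell Ranger on a modified mm10 reference of 28001 features. The whole-limb headers name no version. A minimum of 3000 UMIs per cell, taken from the methods, and a mitochondrial limit of 10%, chosen here, were applied. No cell was removed as a doublet in the main analysis, and leaving out the 5% with the highest Scrublet scores was an alternative. The members and gene lists were chosen with earlier results of these data known.

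UMIs were summed per class and library and tested with edgeR 4.0.16 (R 4.3.3) by its quasi-likelihood test, with TMM scaling, filterByExpr, the library as a block and Benjamini-Hochberg adjustment at 0.05 over all genes tested. The block is the suspension from which both classes came. The 5 gate genes were given no test and are not counted, and stayed in the adjustment. The fit leaves 1 residual degree of freedom, so its p-values rest mainly on counting error and on the spread shared across genes (biological coefficient of variation 2.05% against all other cells). The SE given with a log2 fold change is its absolute value divided by the square root of the F statistic of this test. It is therefore no separate measure of the spread between the libraries. DESeq2 1.42.0 was an alternative. The scripts were tested on simulated data. Genes were named from those past the threshold, at 20 CPM or more in the higher class of both libraries and changed in the same direction in both, as the 10 with the largest fold change in each direction (5 between members with and without *Pax1*). Gate, mitochondrial, haemoglobin, *Xist*, *Tsix* and Y-linked genes were left out, and further genes are examples from the lists. Some genes that these rules would name are not reported here. Mesenchymal cells are those without the marker genes of other cell types. CPM are UMIs per 1000000 UMIs of the class, and shares of cells were compared after thinning each cell to 3000 UMIs (numpy 2.4.6, scipy 1.17.1, scanpy 1.11.5), which leaves out 124 and 78 shallower barcodes.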

Additional observations from a re-analysis of the deposited data

Results flagged for a closer look

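The same gate was applied to the 6 sorted libraries, which no comparison above uses, and each held cells that pass it, in a number above the 3 cells that a count of 0 allows. That is no test, and no background share of the gate in these libraries is known. The libraries differ in depth and chemistry and each is 1 library, so no comparison was made. In the sorted E11.5 library 30 of 3165 cells passed (0.948%, exact 95% binomial interval 0.64 to 1.35), 20 of 4714 at E12.5 (0.424%, 0.259 to 0.654) and 57 of 6123 at E13.5 (0.931%, 0.706 to 1.2). The later libraries, made with the v3 kit, had 479 of 8381 cells at E14.5 (5.72%, 5.23 to 6.23), 881 of 11109 at E16.5 proximal (7.93%, 7.43 to 8.45) and 573 of 8447 at E16.5 distal (6.78%, 6.26 to 7.34). The gate took deeper cells in most of these libraries, with medians of 18386 UMIs against 8992 in all filtered cells at E11.5 and 26829 against 18473 at E16.5 proximal. A *Pax1* UMI was found in 6.67% of these cells in the E11.5 library, in 30% in that of E12.5, in 54.4% (E13.5) and 52.4% (E14.5). For E16.5 the share was 11.5% in the proximal library and 50.1% in the distal one.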

How the results depend on the processing

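The gate reads low counts, so the number of members moved with depth and with the rule. Thinning every cell to 3000 UMIs before the gate left 3.4% of whole 1 and 3.43% of whole 2, asking for all 3 genes left 1.52% and 2.16%, and dropping the limit on *Hand2* and *Hoxa13* gave 8% and 9.15%. The mean share was 6.64% to 7.81% with either library left out. Without thinning, *Irx3* was found in 73% of cells with *Pax1* and *Irx5* (mean of both libraries, 56.2% thinned) and *Irx5* in 56% of cells with *Pax1* and *Irx3* (38.9% thinned), an alternative added after the data had been seen.

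Calls were 2450, 1838, 2365 and 625 against all other cells, the *Hand2*- and *Hoxa13*-negative mesenchyme, the *Hand2*-positive mesenchyme and between *Pax1*-positive and *Pax1*-negative members. In that order they were 826, 451, 576 and 72 with DESeq2, 1233, 881, 1033 and 259 with no replicate block, and 806, 689, 940 and 199 with cells thinned to 3000 UMIs after the gate. Requiring all 3 genes gave 1050, 866 and 1098 in the comparisons with other cells. Gating after thinning gave 1399 against all other cells, 1344 against the *Hand2*-positive mesenchyme and 299 between members. The other alternatives (RLE scaling, no filter, depth-matched cells, doublet scores, mitochondrial limit 5%, UMI minimum 5000 and, where run, mesenchymal cells only or all 3 genes between members) stayed within 1.5 times.

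Of 204 fold changes of single genes, 5 that passed the test reversed under an alternative, and 8 that had not passed it changed sign under 1 or more, among them *Hoxd4* against all other cells (-0.39 with all 3 genes required). With mesenchymal cells only, *Myog* and *Pf4* turned to 0.05 and 0.6 against all other cells. *Ccnb1* turned to -0.02 with depth-matched cells and -0.04 when gated after thinning, *Gli3* to -0.04 against the posterior cells with all 3 genes required, and *Alx1* to -0.32 between members when those with *Pax1* held both Iroquois genes. The cause of these changes was not tested. With 1 library left out there is no test. Of the 2371 values of genes under alternatives with a test, 158 lost significance in the same direction and 12 gained it.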

Other observations

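In the 30 cells of the sorted E11.5 library that pass the gate, *Hoxc4* was at 116 CPM (exact 95% Poisson interval 89.4 to 148, 64 UMIs) against 2.71 in the other sorted cells, and *Meis2* at 203 CPM (167 to 245) against 82.9. *Lhx9* was at 125 CPM (97.4 to 158) against 15.9. *Rspo1* was at 7.26 CPM (1.98 to 18.6, 4 UMIs) against 1.55, and *Agtr2* at 23.6 CPM (12.6 to 40.3) against 8.63. *Gsc*, a homeobox gene chosen here after its values were seen, was at 25.4 CPM (13.9 to 42.6) against 105, whereas in the whole-limb libraries it was at 69.6 and 45.2 CPM in members against 10.7 and 10.2 in other cells. *tdTomato* was at 256 CPM in these 30 cells and 458 in the other sorted cells. These are values of 1 library, with no test.

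*Lmx1b*, which specifies dorsal identity, was at 20.2 and 19.6 CPM in whole-limb members against 14.2 and 15 in the other cells (log2 fold change 0.45 ± 0.14, adjusted p = 0.013 by edgeR). This call was lost with DESeq2 (0.44), without the block (0.45), with all 3 genes required (0.57), when gated after thinning (0.49) and with cells thinned after the gate (0.06). *En1*, its ventral counterpart in the ectoderm, did not pass. At 3000 UMIs per cell a *Lmx1b* UMI was found in 4.96% and 4.5% of members against 4.35% and 4.51% of other cells.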
